A study of Capra hircus with 20 samples.

Results

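The N-methyl-D-aspartate (NMDA) receptor is a cation channel opened by glutamate, the main excitatory transmitter of the brain, and its subunits are encoded by 7 genes in the goat. All 7 (GRIN1, GRIN2A, GRIN2B, GRIN2C, GRIN2D, GRIN3A and GRIN3B) were found by NCBI gene identifier among the 21071 genes with deposited values, and all 7 were among the 16771 genes with at least 0.1 FPKM (fragments per kilobase of exon, scaled to the mapped fragments of the library) in at least 5 libraries. The libraries came from hypothalamic tissue of 20 female Jining grey goats, an early-maturing breed, with no treatment and the same rearing for all. They were sampled at 1 day (D1), 60 days (M2), 120 days (M4) and 180 days (M6) after birth, with 5 goats at each stage, each giving 1 rRNA-depleted, strand-specific library. The design asks how the hypothalamic transcriptome changes between birth and sexual maturity.

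An NMDA receptor is an assembly of GRIN1, which binds glycine or D-serine and is needed in every functional receptor, with GRIN2 subunits, which bind glutamate, or with GRIN3 subunits, which bind glycine. In receptors with GRIN2A or GRIN2B, the channel passes calcium well only when agonists are bound and the membrane is depolarised enough to expel a blocking magnesium ion. In the forebrain of rodents, GRIN2B and GRIN2D prevail around birth and GRIN2A and GRIN2C are added later. In the hypothalamus, NMDA receptors act on the neurons that release gonadotropin-releasing hormone and on the cells upstream of them.

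The genes lie on 7 chromosomes of the ARS1.2 assembly, to which the reads had been aligned, and all are annotated as protein-coding. GRIN1 (gene 102181789) spans chromosome 11 from 106077938 to 106106343 and has 14 RefSeq transcripts. GRIN2A (102189537) spans chromosome 25 from 8362784 to 8807824, and GRIN2B (108636054) spans chromosome 5 from 94721618 to 94956507. GRIN2C (102177097) lies on chromosome 19 from 55765910 to 55782486, and GRIN2D (102177187) on chromosome 18 from 56117047 to 56151568. GRIN3A (102191614) runs from 91134303 to 91337452 on chromosome 8, and GRIN3B (102174657) from 66959606 to 66968842 on chromosome 7. The interval of GRIN1 overlaps LRRC26, that of GRIN2D overlaps the lncRNA gene LOC108638004, and that of GRIN3A overlaps PPP3R2. Whether strand was used when FPKM was calculated is not given in the sources used here, so reads shared with these neighbours cannot be told apart.

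Several libraries stood apart in markers of other brain regions, and they recur in the values of the subunits. M4 replicate 1 had 68.0 FPKM of SLC17A7 and 23.7 of NEUROD6, genes of excitatory cortical neurons, against at most 1.07 and 1.26 in the other 19 libraries. The thalamic marker TCF7L2 was at 86.3 FPKM in M4 replicate 2 and at most 32.6 elsewhere. PPP1R1B, a marker of striatal projection neurons, was at 226 FPKM in D1 replicate 4, 48.1 in M2 replicate 4 and 102 in M6 replicate 2, against at most 6.82 in the other 17. M6 replicate 3 was low in pan-neuronal markers, with a summed FPKM of the 8 genes of 138 against a median of 1222 over the 20 libraries. It was also among the 3 libraries of lowest mapping rate. The others of these, M2 replicates 1 and 3, had pan-neuronal sums of 484 and 693. The part of the mapping rate in these sums was not tested. The summed FPKM of 10 hypothalamic neuron markers ran from 1.46 to 916 with a median of 12.8, and was 67.8 in M6 replicate 3. Its median by stage was 6.85 (D1), 14.3 (M2), 3.06 (M4) and 99.7 (M6). M4 replicates 3 and 5, with sums of 1.46 and 3.06, are kept where the libraries high in other-region markers are left out. Of the 10 hypothalamic markers, NKX2-1, a regulator of ventral hypothalamic identity, was listed at 0 in 4 libraries, and OTP and PMCH in 3 each. OXT and HCRT were at 0 in 6 each, SIM1 and TRH in 1 each, GHRH in 19, and AVP and POMC in 0. Several fold changes and ratios are also given without the libraries high in markers of other regions, or without M6 replicate 3. In bulk tissue, fewer cells of a type and less RNA per cell cannot be told apart.

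GRIN1 had the highest mean level of the 7 genes, 8.76 FPKM over the 20 libraries. At D1 its FPKM was 9.48, 7.87, 13.7, 10.1 and 3.83 in replicates 1 to 5, and at M2 it was 8.52, 6.46, 13.1, 10.8 and 9.37. It was 9.93, 19.7, 8.78, 5.22 and 4.54 at M4, and 4.34, 7.72, 0.885, 8.23 and 12.6 at M6. The 4 stages overlapped, with the highest value in the library high in thalamic markers and the lowest in the one low in neuronal markers. The means were 9.0 ± 3.6 (SD, n = 5), 9.66 ± 2.5, 9.64 ± 6.08 and 6.75 ± 4.39 in the order of age. The comparison with the smallest p for GRIN1 was M6 vs. M2, with a log2 fold change of -0.88 (standard error 0.53, adjusted p = 0.750 by limma with Benjamini-Hochberg adjustment). Without M6 replicate 3 it was -0.29. Here and below, fold changes are on the log2(FPKM + 0.1) scale, which understates the change of low genes.

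GRIN2A, the subunit that gives receptors fast deactivation, was at a median of 2.27 FPKM over the 20 libraries. Its FPKM was 2.25, 3.37, 6.60, 3.53 and 1.36 at D1 and 1.16, 2.12, 2.29, 3.38 and 1.88 at M2. At M4 the values were 25.4, 12.8, 1.84, 2.16 and 2.46, and at M6 they were 2.44, 2.48, 0.227, 2.09 and 2.10. The pair of high M4 values belonged to the libraries high in cortical and in thalamic markers, and the other 3 M4 libraries lay within the range of D1. The M4 mean was 8.94 ± 10.3 (SD, n = 5) with all libraries and 2.15 ± 0.310 (n = 3) without these 2. At the other stages the mean was 3.42 ± 1.98 (D1), 2.17 ± 0.805 (M2) and 1.87 ± 0.936 (M6). The log2 fold change of GRIN2A in M6 vs. M4 was -1.70 (standard error 0.68, unadjusted p = 0.0210, limma), which did not pass over all genes tested (adjusted p = 0.700). Without the 5 libraries high in markers of other regions, the same log2 fold change was -0.66, and without M4 replicate 1 or M6 replicate 3 alone it was -1.12. The fit without the 5 libraries still holds M6 replicate 3, at 0.227 FPKM. Its other M6 libraries had 2.44, 2.09 and 2.10 FPKM, beside 1.84, 2.16 and 2.46 at M4. The part of the cortical and thalamic markers in this difference was not tested.

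GRIN2B, the slowly deactivating subunit prominent before birth, was at 4.71, 3.85, 6.81, 11.3 and 2.34 FPKM at D1 and at 3.96, 3.95, 3.95, 11 and 5.82 at M2. The M4 libraries had 11.5, 10.6, 2.72, 3.95 and 3.64 FPKM, and the M6 libraries 2.21, 7.87, 1.58, 5.00 and 4.35. In each stage the highest GRIN2B value came from a library high in cortical or striatal markers, and the library high in thalamic markers came second at M4. Stage means were 5.81 ± 3.49 (SD, n = 5), 5.73 ± 3.05, 6.47 ± 4.18 and 4.2 ± 2.5 at D1, M2, M4 and M6. Without those 5 libraries they were 4.43 (n = 4), 4.42 (n = 4), 3.44 (n = 3) and 3.28 (n = 4). The smallest p for GRIN2B was that of M6 vs. M4, with a log2 fold change of -0.58 (standard error 0.49, adjusted p = 0.837, limma). Without the 5 libraries high in markers of other regions it was -0.19. Leaving out single libraries gave -0.32 without M4 replicate 1, -0.35 without M4 replicate 2 and -0.30 without M6 replicate 3. With the pan-neuronal markers as a covariate this fold change had the opposite sign, 0.18.

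GRIN2C, known best from cerebellar granule cells and from astrocytes, was low and uneven. It was at 0.370, 0.887, 1.22, 0.982 and 0.853 FPKM at D1 and at 0.405, 0.498, 1.74, 0.25 and 1.5 at M2. The values were 0.0575, 2.57, 0.0785, 1.55 and 0.610 at M4 and 1.25, 1.44, 1.94, 0.718 and 1.86 at M6. Both the highest and the lowest value of GRIN2C were at M4, in the libraries high in thalamic and in cortical markers, and the M6 libraries lay within the M4 range. Means were 0.862 ± 0.309 (SD, n = 5), 0.878 ± 0.688, 0.974 ± 1.08 and 1.44 ± 0.496 FPKM in the order of age. GRIN2C had its smallest p in M6 vs. M4, with a log2 fold change of 1.25 (standard error 0.67, adjusted p = 0.767, limma). It was 0.76 without M4 replicate 1 and 1.78 without M4 replicate 2.

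GRIN2D, a subunit of very slow deactivation found in the diencephalon and in interneurons, was at 1.08, 0.898, 0.927, 0.256 and 0.524 FPKM at D1 and at 0.523, 2.46, 1.58, 0.799 and 1.52 at M2. It was at 0.224, 2.92, 0.33, 0.510 and 0.622 at M4 and at 0.854, 0.305, 0.266, 0.918 and 1.25 at M6. The highest GRIN2D value was again in M4 replicate 2, and the lowest in M4 replicate 1. The means were 0.738 ± 0.339 (SD, n = 5), 1.38 ± 0.759, 0.921 ± 1.13 and 0.719 ± 0.424 in the order of age. Its smallest p was in M4 vs. M2, at a log2 fold change of -0.88 (standard error 0.57, adjusted p = 0.653, limma). It was -0.60 without M4 replicate 1 and -1.40 without M4 replicate 2.

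GRIN3A lowers the calcium permeability of receptors that hold it and is a subunit of the developing forebrain. At D1 it was at 12.7, 9.05, 7.85, 4.69 and 8.07 FPKM, and at M2 at 4.96, 10.8, 7.65, 6.07 and 7.68. The M4 values were 4.84, 10.1, 7.37, 6.48 and 8.99, and the M6 values 4.78, 4.02, 3.30, 9.48 and 8.47. The stages overlapped, and the lowest value was again in M6 replicate 3. Its means were 8.48 ± 2.89 (SD, n = 5), 7.42 ± 2.19, 7.57 ± 2.08 and 6.01 ± 2.78 FPKM in the order of age. GRIN3A had its smallest p in M6 vs. D1, at a log2 fold change of -0.54 (standard error 0.31, adjusted p = 0.728, limma), which was -0.36 without M6 replicate 3. In contrast to GRIN2B, the 3 libraries high in striatal markers had 4.69, 6.07 and 4.02 FPKM of GRIN3A, each among the lowest 2 of its stage. GRIN3A had the smallest within-stage spread of the 7 genes, with an SD of 0.51 on the log2 scale (42.8th percentile of the genes tested).

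GRIN3B, a glycine-binding subunit known best from motor neurons, was close to the limit of the data. It was at 0.405, 0.278, 0.350, 0.0105 and 0.0806 FPKM at D1, and in the later stages it was listed at 0 in 11 of 15 libraries. The exceptions were 0.374 in M2 replicate 3, 0.00959 in M4 replicate 1, and 0.0606 and 0.101 in M6 replicates 1 and 5. Whether a listed 0 is a failed estimate cannot be told here. Of the 8058 genes whose median reached 5 FPKM, 8 had a 0 in some library. GRIN3B was above 0 in 5 of 5 D1 libraries, but D1 and M2 overlapped through M2 replicate 3. The lowest D1 value, 0.0105 FPKM, lay close to the highest M4 value, 0.00959 FPKM. The share of all genes whose D1 and M4 values do not overlap was not counted. GRIN3B reached 0.1 FPKM in 5 libraries, the fewest the filter allows: 3 at D1, 1 at M2 and 1 at M6. It entered the fit mainly through D1, the stage where it was highest, and its p-values do not allow for this. For the mean of the 3 later stages against D1, the log2 fold change of GRIN3B was -1.21 (standard error 0.42, unadjusted p = 0.00846, adjusted p = 0.269, limma). Without the 5 libraries high in other-region markers it was -1.49. The log2 fold changes were -1.04, -1.46 and -1.15 for M2, M4 and M6 against D1 (adjusted p = 0.329, 0.432 and 0.638, limma), and the comparisons share the D1 libraries.

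**Figure D1:**
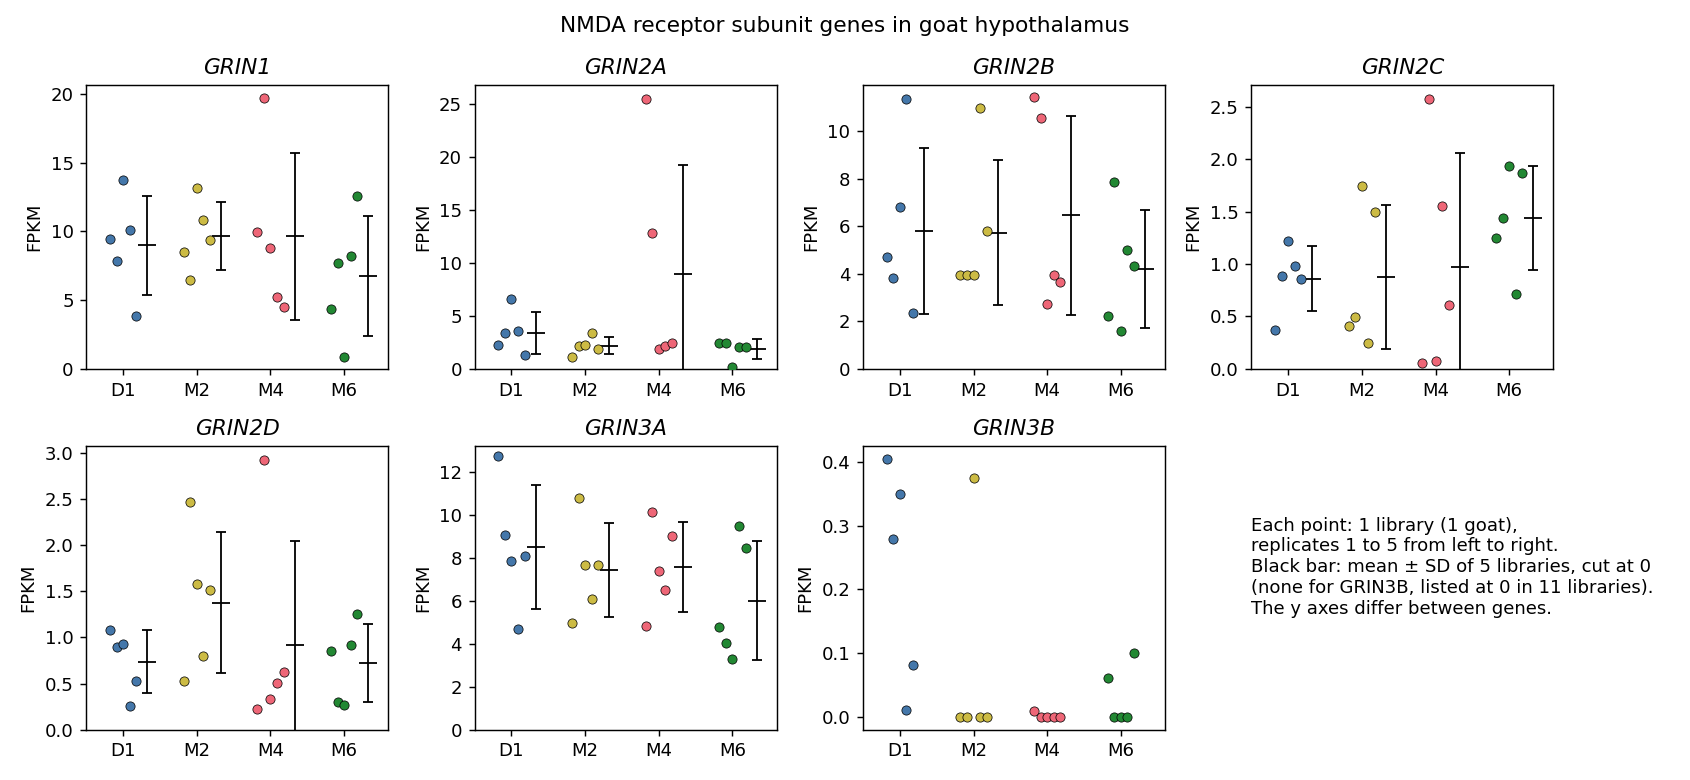
FPKM of the 7 NMDA receptor subunit genes (y axes, linear, each gene its own scale) at the 4 stages (x axes), with 1 point per library, replicates from left to right, and the mean ± SD of 5 libraries as bars cut at 0 and left out for GRIN3B. The 4 stages overlap for 6 genes, GRIN2A stands at 25.4 and 12.8 FPKM in M4 replicates 1 and 2, and GRIN3B is above 0 in all 5 D1 libraries and in 4 of the 15 later ones.

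With a call set at an adjusted p under 0.05 and a log2 fold change of 1 or more in either direction, 0 of the 7 subunits were called in any comparison (limma with Benjamini-Hochberg adjustment over 16771 genes). The share of all genes tested that passed was likewise small. It was 0% in M2 vs. D1, M4 vs. M2, M6 vs. M4 and M6 vs. M2, 0.0537% in M4 vs. D1, while M6 vs. D1 had 0.00596% and it was 0.0596% for the later stages against D1. By the F test across the 4 stages, 0 subunits passed against 0.00596% of all genes, and their adjusted p ran from 0.480 for GRIN3B to 0.823 for GRIN2B. At an unadjusted p under 0.05, the count of subunits was 1 (GRIN2A) in M6 vs. M4, where 6.87% of all genes passed. It was 1 (GRIN3B) in each of M4, M6 and the later stages against D1, where 8.71%, 7.41% and 11.7% of all genes passed. In M2 vs. D1, M4 vs. M2 and M6 vs. M2 it was 0, against 15.6%, 8.68% and 6.14% of all genes. The F test gave 0 subunits at an unadjusted p under 0.05, against 10.4% of all genes. A p that misses the threshold does not show that the stages were alike.

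Of the 7 subunits, 6 varied more between goats of one stage than the median gene did, and GRIN3A varied less. The within-stage SD on the log2 scale was 1.17 for GRIN2A (87.9th percentile of the genes tested), 1.13 for GRIN2C (86.5th), 0.93 for GRIN2D, 0.92 for GRIN1, 0.84 for GRIN2B, 0.73 for GRIN3B and 0.51 for GRIN3A, against a median of 0.57 over the genes. Differences between stages made up 26.8% of the variance of GRIN2A, 41.3% of that of GRIN3B and between 8.78% and 16.8% of that of the other 5, beside a median of 18.2% over the genes. Percentiles and shares are descriptions, with no test.

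In the order of mean FPKM, a level per exon length, the genes stood as GRIN1, GRIN3A, GRIN2B, GRIN2A, GRIN2C, GRIN2D and GRIN3B. GRIN1 and GRIN3A did not differ beyond their spread, with GRIN1 higher in 11 of 20 libraries (adjusted p = 0.614). GRIN3A was higher than GRIN2B in 15 of 20 (adjusted p = 0.0344), GRIN2B higher than GRIN2A in 17 of 20 (adjusted p = 0.00098) and GRIN2A higher than GRIN2C in 19 of 20 (adjusted p = 0.00098). GRIN2C and GRIN2D did not differ beyond their spread, with GRIN2C higher in 9 of 20 (adjusted p = 0.762). GRIN2D was higher than GRIN3B in 20 of 20 (adjusted p = 6e-05, from the smallest p the permutations can give). These are two-sided permutation tests of the paired log2 values with Benjamini-Hochberg adjustment over the 6 neighbouring pairs. The pairs were taken from the order of mean FPKM in these same libraries, which the p-values do not allow for. The p-values cover the spread over libraries, not differences between genes in how well FPKM is estimated. By the medians of each stage the order was the same, except that GRIN2D stood above GRIN2C at D1 and M2.

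GRIN2B was the most abundant GRIN2 gene in 16 of the 20 libraries, GRIN2A in 3 and GRIN2C in 1. Of the summed FPKM of the 4 GRIN2 genes, GRIN2B made up 49.8% ± 11.9 (SD, n = 20), GRIN2A 29.0% ± 13.1, GRIN2C 11.8% ± 10.5 and GRIN2D 9.51% ± 5.96. The GRIN2A share averaged 31.0% ± 8.52, 21.2% ± 2.79, 41.9% ± 16.2 and 21.6% ± 10.9 (SD, n = 5) in the order of age. It reached 68.4% in M4 replicate 1, the library high in cortical markers. M6 replicate 3, low in neuronal markers, was the library in which GRIN2C led, at 48.3%. The reads behind these shares are unknown, so no counting interval can be given.

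**Figure D2:**
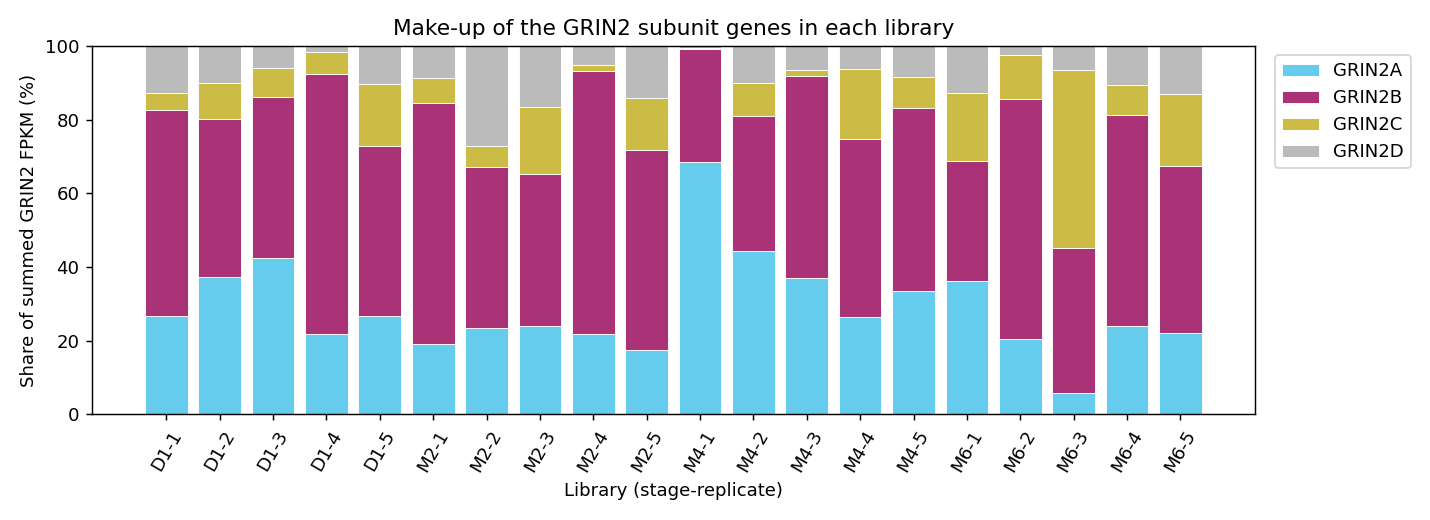
Share of each GRIN2 gene in the summed FPKM of GRIN2A, GRIN2B, GRIN2C and GRIN2D (y axis, percent) in each of the 20 libraries (x axis, stage and replicate). GRIN2B holds the largest segment in 16 libraries, GRIN2A reaches 68.4% in M4-1 and GRIN2C 48.3% in M6-3.

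The ratio of GRIN2B to GRIN2A, which compares both glutamate-binding subunits within a library and so does not depend on its scaling, was above 1 in 17 of 20 libraries. It was 2.09, 1.14, 1.03, 3.21 and 1.73 at D1 and 3.42, 1.86, 1.72, 3.25 and 3.10 at M2. At M4 the ratio was 0.450, 0.824, 1.48, 1.83 and 1.48, and at M6 it was 0.905, 3.17, 6.95, 2.40 and 2.07. The ratio was thus below 1 in the M4 libraries high in cortical and in thalamic markers and in M6 replicate 1, and the stages overlapped. Its geometric mean was 1.69, 2.56, 1.08 and 2.51 from D1 to M6, and the log2 ratio was 0.76 ± 0.67, 1.36 ± 0.48, 0.12 ± 0.83 and 1.33 ± 1.06 (SD, n = 5).

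Between stages, the log2 ratio of GRIN2B to GRIN2A differed most in M4 vs. M2, by -1.24 (exact two-sided permutation test, p = 0.0159, adjusted p = 0.111 over 7 comparisons). The smallest p that 5 libraries against 5 allow is 0.00794. In M6 vs. M4 the difference was 1.21 (exact permutation p = 0.0794, adjusted p = 0.278), and in M2 vs. D1 it was 0.60 (exact permutation p = 0.175, adjusted p = 0.407). M4 vs. D1 gave -0.64 (exact permutation p = 0.246, adjusted p = 0.431) and M6 vs. D1 gave 0.57 (exact permutation p = 0.357, adjusted p = 0.5). M6 vs. M2 gave -0.03 (exact permutation p = 0.960). The 15 later libraries differed from D1 by 0.18 (permutation p = 0.705, adjusted p = 0.822), so that no stage difference in the ratio passed. Without the 5 libraries high in markers of other regions, the difference in M4 vs. M2 was -0.60 (exact permutation, adjusted p = 0.460). The part of these markers in the ratio was not tested.

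The other ratios within a library were those of GRIN2C and of GRIN2D to GRIN2B, of GRIN3A to GRIN1 and of the summed GRIN2 genes to GRIN1. None of their 28 comparisons passed, with adjusted p of at least 0.885 by exact permutation tests. For GRIN2C to GRIN2B, the mean log2 ratio was -2.65 ± 0.94, -2.97 ± 1.62, -3.74 ± 2.60 and -1.40 ± 1.26 (SD, n = 5) from D1 to M6. The difference in M6 vs. M4 was 2.34 (exact permutation p = 0.119) and was 1.37 without M4 replicate 1. GRIN2C exceeded GRIN2B in 1 library, M6 replicate 3. For GRIN2D to GRIN2B, the largest difference was -1.09 in M4 vs. M2 (exact permutation p = 0.262). It was -0.47 without M4 replicate 1 and ran from -1.50 to -0.73 when each of the other libraries was left out. The ratio of the summed GRIN2 genes to GRIN1 had a geometric mean of 1.3 and was above 1 in 15 of 20 libraries.

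**Figure D3:**
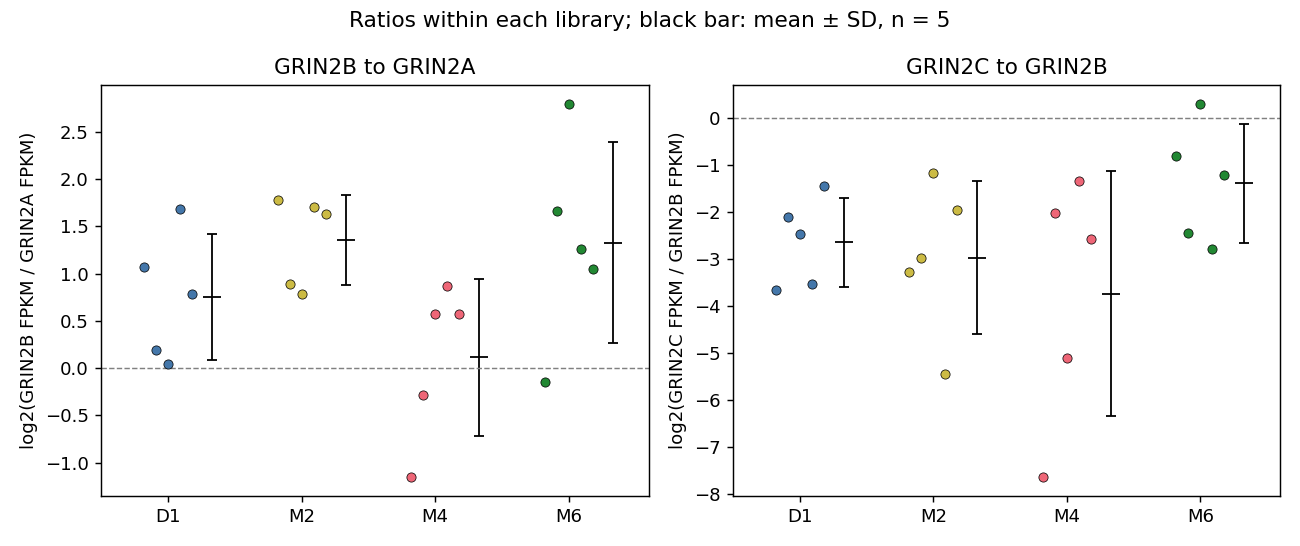
Log2 ratio of GRIN2B to GRIN2A and of GRIN2C to GRIN2B within each library (y axes) at the 4 stages (x axes), with 1 point per library, replicates from left to right, and the mean ± SD (n = 5) as bars. The dashed line marks equal FPKM. GRIN2B exceeds GRIN2A in 17 of 20 libraries, and GRIN2C exceeds GRIN2B in 1.

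Over the 20 libraries, 3 of the 21 pairs of subunits were correlated by both measures, on log2(FPKM + 0.1) with 100000 permutations and Benjamini-Hochberg adjustment over the pairs. GRIN1 and GRIN2B had a Pearson's r of 0.717 (permutation p = 0.00013, adjusted p = 0.00136) and a Spearman's rho of 0.725 (permutation p = 0.0004, adjusted p = 0.0042). Without the 2 libraries farthest from the median of GRIN1, r was 0.586, and with the stage means taken out it was 0.689. GRIN2A and GRIN2B had an r of 0.757 (permutation p = 4e-05, adjusted p = 0.00084) and a rho of 0.632 (permutation p = 0.00383, adjusted p = 0.0268), with an r of 0.629 without the 2 farthest libraries and of 0.784 within stages. GRIN2D and GRIN3A had an r of 0.723 (permutation p = 0.00021, adjusted p = 0.00147) and a rho of 0.749 (permutation p = 0.00023, adjusted p = 0.0042). That r was 0.689 without the 2 farthest libraries and 0.826 within stages. With the stage means taken out, GRIN1 and GRIN2A passed as well (r = 0.739, permutation, adjusted p = 0.00189). Without the 5 libraries high in other-region markers (n = 15), GRIN1 and GRIN2B passed (r = 0.814), while GRIN1 and GRIN2A (r = 0.770, rho = 0.275), GRIN2A and GRIN2B (r = 0.707, rho = 0.200) and GRIN2D and GRIN3A (r = 0.601, rho = 0.582) passed by Pearson's r but not by Spearman's rho. Without M6 replicate 3 (n = 19), GRIN2A and GRIN2B (r = 0.682, rho = 0.570) likewise passed by r alone.

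**Figure D4:**
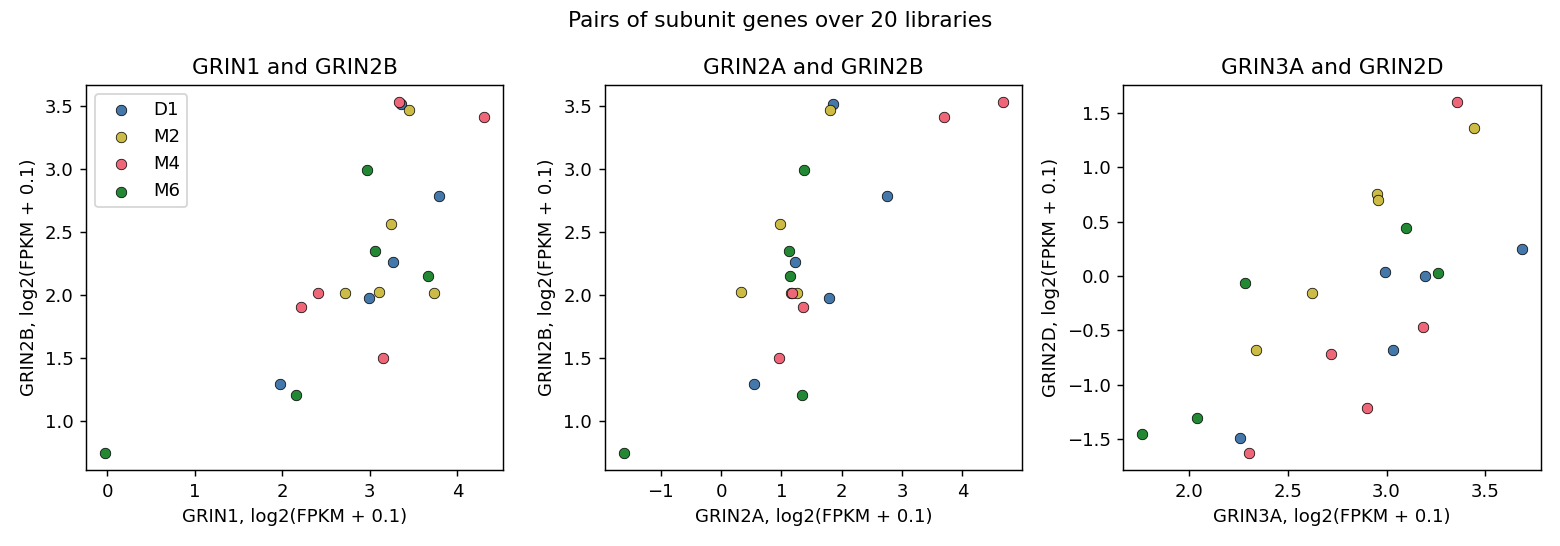
Levels of 3 pairs of subunit genes in the 20 libraries, each axis on the log2(FPKM + 0.1) scale, with points coloured by stage. Pearson's r is 0.717 for GRIN1 and GRIN2B, 0.757 for GRIN2A and GRIN2B and 0.723 for GRIN3A and GRIN2D. The library at the lower left of the first 2 panels is M6 replicate 3.

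The levels of GRIN2A and GRIN2B moved with the summed markers of neurons and glia, which share the libraries and their scaling. Pearson's r with the summed pan-neuronal markers was 0.842 for GRIN2A, 0.682 for GRIN2B, 0.675 for GRIN1 and 0.429 for GRIN3A. Without M6 replicate 3 these were 0.775, 0.596, 0.172 and 0.0805. With the 5 libraries high in other-region markers left out but M6 replicate 3 kept, they were 0.887, 0.642, 0.669 and 0.815. Spearman's rho in that set was 0.675, 0.332, 0.193 and 0.668. Leaving out also the 2 libraries farthest from the median of the markers, r was 0.503, 0.435, -0.0415 and 0.471. GRIN2B had an r of -0.798 with the 5 astrocyte markers, whose sum ran from 636 to 4313 FPKM, and of -0.725 with the 5 markers of mature oligodendrocytes, whose sum ran from 114 to 3808. For GRIN2A these were -0.644 and -0.566, and for GRIN3A they were 0.352 and 0.153. Without the same 5 libraries they were -0.439 and -0.310 for GRIN2B and -0.158 and 0.0242 for GRIN2A. These correlations were chosen after the data were seen and are descriptions. Of 18 of them, 5 passed by both measures with all libraries and 0 without the 5 libraries high in other-region markers. Their part in the levels of the subunits was not tested.

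**Figure D5:**
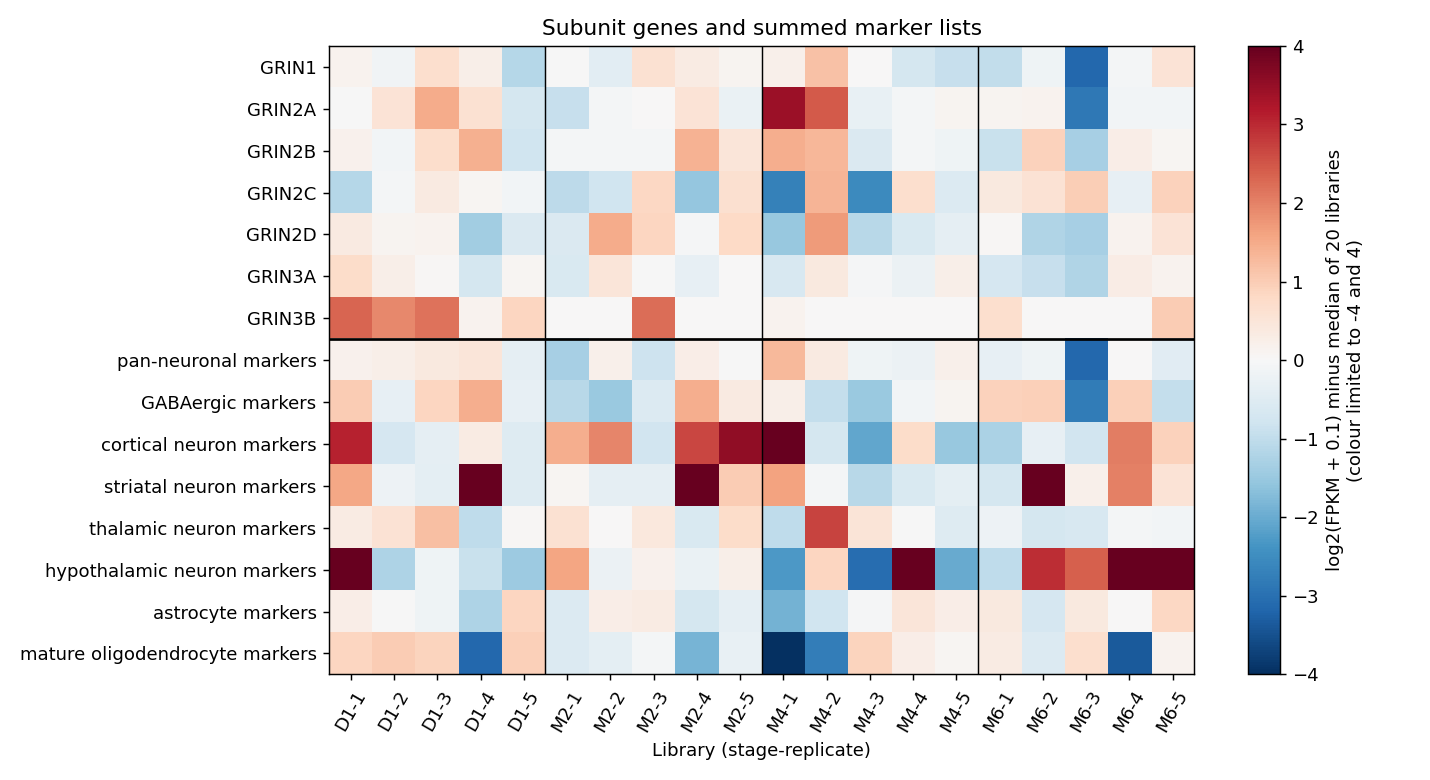
Levels of the 7 subunit genes (upper block) and summed FPKM of 8 marker lists (lower block) in each of the 20 libraries (columns, stage and replicate), as log2(FPKM + 0.1) minus the median of the 20 libraries, with the colour limited to -4 and 4. M4-1 and M4-2, with the cortical and the thalamic markers highest, have the highest GRIN2A, and M6-3, with the pan-neuronal markers lowest, has the lowest GRIN1, GRIN2A, GRIN2B and GRIN3A.

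The genes whose levels followed each subunit most closely over the 20 libraries were taken from 13589 genes with a mean of at least 1 FPKM, with no test. For GRIN1 they were GABBR1 (r = 0.938), a subunit of the GABA-B receptor, CRAT (0.930), carnitine acetyltransferase, and CNTNAP1 (0.926), a protein of the paranodal axon membrane. For GRIN2A they were SH3GL2 (0.942), an endophilin of synaptic vesicle endocytosis, P2RX5 (0.932), an ATP-gated channel, and MYH10 (0.904), a nonmuscle myosin. GRIN2B was followed by CAMKV (0.939), a kinase-like vesicle protein, CAMK2B (0.937), the beta subunit of calcium/calmodulin-dependent kinase II, and CDK5R1 (0.932), the activator of the neuronal kinase CDK5. The closest to GRIN2C were S100A5 (0.826), SLC50A1 (0.754) and S100A14 (0.731), a calcium-binding protein, a sugar transporter and another S100 protein. The r of the nearest gene was thus lower for GRIN2C than for the other 3.

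Of 69 tested genes of 5 groups that work with NMDA receptors, 0 passed in any comparison (limma, shares of all genes as above). At an unadjusted p under 0.05, at most 3 genes of a list passed in any comparison. That count came only from the 12 genes of glycine and D-serine supply. In M4 vs. D1 and for the later stages against D1, all 3 were lower, beside 8.71% and 11.7% of all genes. In M4 vs. M2, 1 was higher and 2 lower (8.68% of all genes), and in M6 vs. M4, 2 were higher and 1 lower (6.87%). Among 18 postsynaptic scaffolds, the smallest F test p was that of LIN7B, a partner of the kinase-like scaffold CASK, at 5.72 ± 1.46, 6.13 ± 1.99, 2.69 ± 0.820 and 3.89 ± 1.84 FPKM (SD, n = 5) at D1, M2, M4 and M6 (adjusted p = 0.372, limma). DLG2, a membrane-associated guanylate kinase that binds GRIN2 tails, was at 41.4 ± 16, 79.9 ± 24.1, 75.2 ± 39 and 60.0 ± 4.24 FPKM in the order of age (adjusted p = 0.400, limma). HOMER3, a scaffold of metabotropic receptors, had an adjusted p of 0.496 (limma). The median log2 change of the scaffolds lay between -0.49 (M6 vs. M4) and 0.20 (M4 vs. D1) over the 7 comparisons, and that of all genes between -0.07 and 0.04.

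Among 19 genes of calcium and kinase signalling below the receptor, FYN, a tyrosine kinase that phosphorylates GRIN2 subunits, had the smallest F test p of the 69 (unadjusted p = 0.000537, adjusted p = 0.218, limma). From D1 to M6 its means were 74.6 ± 7.2, 57.1 ± 13, 46.2 ± 4.66 and 45.4 ± 3.4 FPKM (SD, n = 5). The lowest D1 library had 63.1 and the highest M4 and M6 libraries 50.7 and 49.4. The M2 libraries ran from 41.7 to 76.0 and so overlapped D1. FYN was picked by its F test p, and the share of all genes with stages this far apart was not counted. Against the later stages its log2 fold change did not pass (adjusted p = 0.0734, limma). NOS1, neuronal nitric oxide synthase, was at 1.70 ± 1.24, 3.16 ± 1.85, 0.872 ± 0.468 and 1.3 ± 0.563 FPKM at D1, M2, M4 and M6 (adjusted p = 0.430, limma). PPP3CB, a catalytic subunit of calcineurin, had an adjusted p of 0.543 (limma).

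In the supply of the coagonists glycine and D-serine, 12 genes were tested. PHGDH, the first enzyme of serine synthesis, had stage means of 34.3 ± 6.36, 30.0 ± 5.63, 20.1 ± 4.8 and 26.9 ± 5.29 FPKM (SD, n = 5) (adjusted p = 0.372, limma). The glycine transporter SLC6A5 was at most at 0.333 FPKM in any library, and SHMT2, a mitochondrial serine hydroxymethyltransferase, had stage means between 7.52 and 11.3 FPKM. Among 8 genes of glutamate release and uptake, the neuronal transporter SLC1A1 had the smallest p, with stage means between 10.1 and 17.1 FPKM (adjusted p = 0.512, limma). SLC17A6, the vesicular glutamate transporter of subcortical neurons, ran from 0.478 FPKM in an M6 library to 231 in M4 replicate 2. The astrocytic transporter SLC1A2 had stage means between 109 and 150 FPKM. Among 12 trafficking and auxiliary genes, PACSIN1, an endocytic adaptor that binds GRIN3A, led at 6.76 ± 1.42, 9.90 ± 1.93, 8.54 ± 3.40 and 5.24 ± 3.44 FPKM at D1, M2, M4 and M6 (adjusted p = 0.495, limma). EPHB2, an ephrin receptor that binds NMDA receptors, and GRIP1, a glutamate receptor scaffold, followed with adjusted p of 0.674 and 0.679 (limma).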

How the data were processed

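Hypothalamic RNA of 20 goats was sequenced, with 5 separate goats at each of 4 stages. The authors trimmed reads, aligned them with HISAT2 2.0.5 to the goat assembly ARS1.2, assembled transcripts with StringTie 1.3.3b and deposited FPKM per gene, which are the values used here. Low values were not whole multiples of a step, so reads were not recovered and depth is unknown. Genes that reached 0.1 FPKM in 5 or more libraries were fitted as log2(FPKM + 0.1) with limma 3.58.1 (R 4.3.3, trend, 4 stages as groups), with Benjamini-Hochberg adjustment, and the fit was tested on simulated data. The later stages are the mean of M2, M4 and M6. Ratios, orders and correlations used permutation tests (Python 3.11.15, scipy 1.17.1).

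The members and gene lists were chosen with earlier results of these data known. The text names all 7 subunits, up to 3 genes per list with the smallest F test p and the 3 genes most correlated with each of 4 subunits. One listed signalling gene (KALRN) and one pituitary marker (PRL) were not analysed here. Leaving out the 5 libraries high in other-region markers or M6 replicate 3, the neuronal covariate and the marker correlations were added after the data were seen. Markers of pituitary and cerebellar granule cells summed to at most 2.12 and 8.51 FPKM per library. Alternatives varied the pseudocount, filter, normalization, variance model, weights, covariates (mapping rate, from the study), replicate block and libraries. One marker of the cortical list was taken out of it after the results were seen and is not reported here. Sequences were not analysed here.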

Additional observations from a re-analysis of the deposited data

Results flagged for a closer look

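In 6 of 48 groups of 5 libraries, the highest or lowest library lay farther from the rest than Dixon's 95% limit of 0.71 of the range. Chance alone gives about 1 in 20. GRIN2A was at 0.227 FPKM in M6 replicate 3, where the next lowest library had 2.09. GRIN2B was at 11 FPKM in M2 replicate 4, with the next at 5.82, and GRIN2D at 2.92 FPKM in M4 replicate 2, with the next at 0.622. GRIN3B was at 0.374 FPKM in M2 replicate 3 and at 0.00959 in M4 replicate 1, while the other 4 libraries of each stage were listed at 0. With 4 libraries at 0, any other value exceeds the limit, so these 2 groups say nothing about how far it lies. The log2 ratio of GRIN2D to GRIN2B was -5.47 in D1 replicate 4, with the next at -2.88. Of these libraries, M6 replicate 3 had the lowest sum of pan-neuronal markers, M4 replicate 1 the highest of cortical and M4 replicate 2 the highest of thalamic markers, and D1 replicate 4 and M2 replicate 4 were high in striatal markers. The part of these markers was not tested.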

How the results depend on the processing

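Of 465 recalculated counts of calls or passing tests under the alternatives, 460 were equal to the reported count or within 1.5 times of it. These include the pairs of correlated subunits, 3 as reported, 4 with stage means taken out and 2 without M6 replicate 3. The other reported counts were all 0. Few genes of any kind were called under most settings, so a count of calls that stayed at 0 says little about the subunits. With library quality weights, 1 subunit passed in M2 vs. D1, 1 for the later stages against D1, 1 by the F test and 1 pathway gene. These were GRIN3B and DLG2 (log2 fold change 1.07 in M2 vs. D1, adjusted p = 0.0166, limma). The log2 fold change of GRIN3B was -1.66 in M2 vs. D1 (adjusted p = 0.0352, limma). For the later stages against D1 it was -1.60 (adjusted p = 0.00622, limma). GRIN3B entered the fit mainly through D1, the stage where it was highest, and these p-values do not allow for this. The weights raised the calls over all genes to 148 in M2 vs. D1 and 223 for the later stages. Over all alternatives, the log2 fold change of GRIN3B for the later stages ran from -3.09 to -0.23. Without the 5 libraries high in other-region markers, 1 pair of subunits was correlated and 0 correlations with markers passed. The cause was not tested. Signs reversed for GRIN2B in M6 vs. M4 with the pan-neuronal covariate (0.18), and without the 3 libraries of lowest mapping rate for GRIN3A to GRIN1 (-0.16) and summed GRIN2 to GRIN1 (-0.15) in M6 vs. M2, none of which passed in any fit. Leaving out each library in turn gave 0 subunits in every comparison, and a log2 difference between -1.43 and -0.93 in GRIN2B to GRIN2A in M4 vs. M2. GRIN3B did not reach the filter in 5 of these 20 fits, without the 3 libraries of lowest mapping rate or with a mean of at least 1 FPKM. Deviations of same-numbered libraries of different stages had a median correlation of -0.01, against 0.004 for other-numbered ones. The same-numbered correlations ran from -0.25 to 0.43 and were above 0.1 in 7 of 30 pairs. With the replicate block 0 subunits passed, as without it, so that result does not bear on pairing. A fit of only the libraries compared was not run for the later stages or the F test.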
